A study of Rattus norvegicus with 24 samples.

Results

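The guide strands of the miR-23, miR-27 and miR-24 clusters were followed in small RNA libraries from the rat brain after traumatic brain injury (TBI). The members were the 3′ arms whose names match miR-23a, miR-23b, miR-27a, miR-27b or miR-24, and 5 of the 728 miRNAs listed in the count tables met this rule. The libraries came from adult male Sprague-Dawley rats, taken 3 months after surgery. TBI rats had received a lateral fluid-percussion impact over the left parietal lobe, and sham rats had anesthesia and the same surgery without the impact. Each of 12 rats, 6 TBI and 6 sham, gave 1 library from the perilesional cortex and 1 from the ipsilateral thalamus, so there were 24 libraries in 4 groups of 6. The study selected the TBI rats by magnetic resonance imaging for a chronic inflammatory rim around the lesion, so they represent that outcome and not injury in general.

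A miRNA is cut from a hairpin in a longer primary transcript, and the strand that is loaded into Argonaute, the guide, pairs with target mRNAs through its seed near the 5′ end and lowers their translation and stability. The miR-23a cluster and the miR-23b cluster are paralogous: each primary transcript carries a miR-23, a miR-27 and a miR-24 hairpin in a row, so their members are made together before later steps set each level. In other work these miRNAs have been tied to vascular endothelium, to immune cells and, in neurons, to control of pro-apoptotic genes.

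The mature sequences are shown because the a and b forms of a family differ so little that their separate counts rest on a single base. They are given 5′ to 3′ as listed by RefSeq, under their full rat names (rno- is left out elsewhere), with the seed (bases 2 to 8) in capitals.
rno-miR-23a-3p: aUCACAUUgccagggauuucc
rno-miR-23b-3p: aUCACAUUgccagggauuacc
rno-miR-27a-3p: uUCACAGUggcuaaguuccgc
rno-miR-27b-3p: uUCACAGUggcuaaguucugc
rno-miR-24-3p: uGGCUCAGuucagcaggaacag

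Within each family the seeds were identical, and in the RefSeq list no other rat mature miRNA had the miR-23, the miR-27 or the miR-24 seed. The miR-23 and miR-27 seeds share their first 5 bases. Counted from 1 at the 5′ end, miR-23a-3p and miR-23b-3p differ by U19A, and miR-27a-3p and miR-27b-3p by C19U, with the first 18 bases the same. A read that stops before base 19 cannot be given to the a or the b form, and how the authors assigned such reads is not given in the sources used here.

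In the RefSeq annotation of the GRCr8 assembly the a cluster (Mir23a, Mir27a and Mir24-2) lies at chr19:40859455-40859843, a span of 389 bases that overlaps no other listed gene. The b cluster (Mir23b, Mir27b and Mir24-1) lies at chr17:1818669-1819482, a span of 814 bases inside the gene models of Aopep, an aminopeptidase, and Fancc, a DNA repair protein. Both are on the minus strand. The authors counted reads on an older assembly, so these positions serve only as annotation. miR-24-3p is made from both clusters with 1 sequence, and its reads cannot be divided between them. The 5′ arms of its hairpins do differ, after 16 identical bases, and are shown because they are the only reads that tell the miR-24 hairpins apart.
rno-miR-24-2-5p (a cluster): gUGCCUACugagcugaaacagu
rno-miR-24-1-5p (b cluster): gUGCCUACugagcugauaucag

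The libraries held 744564 to 4069284 miRNA reads in cortex, and those from thalamus 523298 to 4139901, and the thalamus libraries of sham rat 55 and TBI rat 56 were the shallowest. Levels are normalised read counts in CPM (miRNA read counts scaled to a common library total), after trimmed mean of M-values (TMM) scaling over the 24 libraries. One read was worth 0.342 to 1.56 CPM in cortex and 0.206 to 2.24 CPM in thalamus. miR-128-3p, a neuronal miRNA, had the highest mean share of reads over the 24 libraries. It took 17.3 to 20.8% of reads in TBI cortex and 20.9 to 32.8% in sham cortex, which is why the scaling is named wherever it turns a result. The cell types of bulk tissue are mixed, so fewer cells of a type and less RNA per cell cannot be told apart.

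The 5 guide strands together made up 1.52% ± 0.114 (SD, n = 6) of miRNA reads in sham cortex, 1.94% ± 0.277 in TBI cortex, 1.78% ± 0.394 in sham thalamus and 1.98% ± 0.409 in TBI thalamus. Their levels spanned more than an order of magnitude, although the mature lengths differ by only 1 base and the hairpins of a cluster come from a common transcript. Averaged over the 24 libraries, rno-miR-27b-3p stood at 8169 CPM, rank 25 of 407 miRNAs, and rno-miR-24-3p at 7339 CPM, rank 32. rno-miR-27a-3p stood at 1152 CPM, rank 73. rno-miR-23b-3p, at 708 CPM and rank 98, and rno-miR-23a-3p, at 511 CPM and rank 114, were the least abundant.

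The b form exceeded the a form almost throughout. miR-27a-3p had fewer reads than miR-27b-3p in 24 of 24 libraries, at 0.0769 to 0.198 times its level. miR-23a-3p had fewer than miR-23b-3p in 23 of 24 libraries, and the exception, the thalamus of TBI rat 45, had 1.07 times as many. The miR-24 hairpins showed the opposite order, with 3.59 to 8.48 times as many reads of the a cluster arm miR-24-2-5p as of the b cluster arm miR-24-1-5p.

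The 3′ arm supplied nearly all reads of each hairpin. Over the 24 libraries it accounted for 99.9% of Mir23a reads, 99.5% of Mir23b reads, 99.1% of Mir27a reads, 99.7% of Mir27b reads and 95.9% of miR-24 reads. The 5′ arm of Mir23a had 0 to 4 reads per library and that of Mir23b 0 to 22, and neither was tested.

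**Figure D1:**
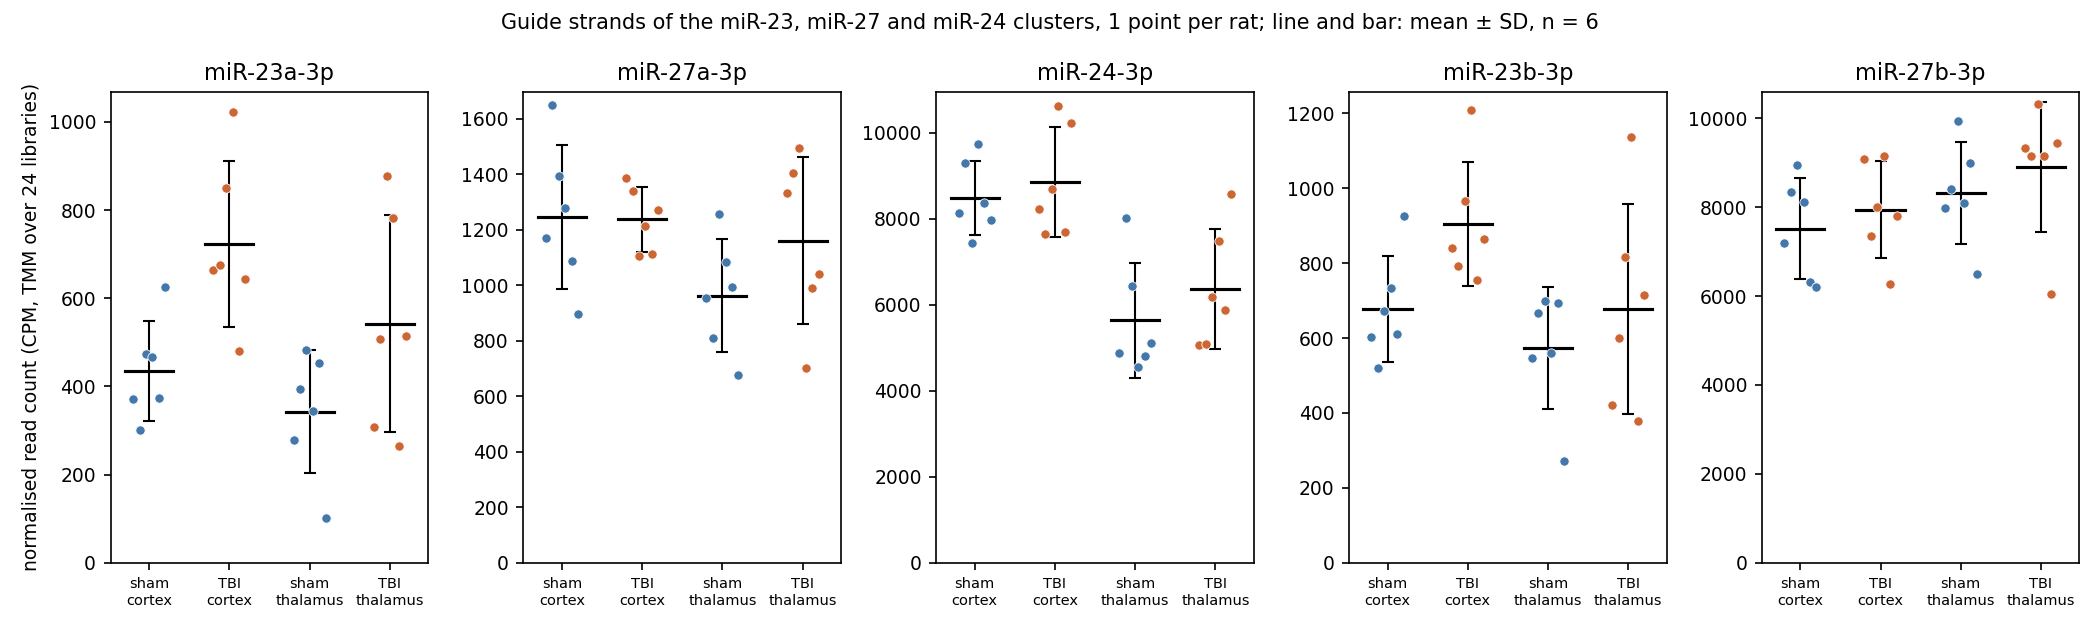
Normalised read count (CPM, linear axes starting at 0) of each guide strand in the 24 libraries, with 1 point per rat and the mean ± SD of each group of 6. In cortex, 5 of 6 TBI rats stand above every sham rat for miR-23a-3p, whereas the groups lie over each other for miR-27a-3p, and miR-24-3p is higher in cortex than in thalamus.

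The main question was whether the guide strands differed between TBI and sham rats in the perilesional cortex. All 5 estimates were above 0, but that of miR-27a-3p was only 0.03 and changed sign in 6 of 12 fits that left out 1 rat. By these estimates the miR-23 pair stood well above the others. Of the 5, 1 member, miR-23a-3p, had an adjusted p under 0.05 (quasi-likelihood test of edgeR, Benjamini-Hochberg adjustment). Of all 371 miRNAs tested in cortex, 5.66% passed. The median log2 fold change was 0.13 over the 5 members and 0.05 over all miRNAs tested.

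For miR-23a-3p, the miR-23 of the a cluster, the lowest, median and highest levels were 480, 670 and 1022 CPM in TBI cortex and 301, 420 and 626 CPM in sham cortex. The groups overlapped: 5 of 6 TBI rats exceeded every sham rat, TBI rat 56 was the low one, and sham rat 55 was the high one among the controls. The mean was 723 ± 188 CPM with TBI against 436 ± 114 CPM without it (SD, n = 6). In the fit of the cortex libraries, which were scaled by themselves, the log2 fold change was 0.79 (± 0.20 SE, edgeR adjusted p = 0.0369).

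For miR-23b-3p, its counterpart in the b cluster, the lowest, median and highest levels were 754, 853 and 1210 CPM in TBI cortex and 520, 641 and 925 CPM in sham cortex. All 6 TBI rats were above the sham median, but sham rat 55 again reached into the TBI range. The log2 fold change was 0.47 (± 0.17 SE, edgeR adjusted p = 0.106), with a 95% interval of 0.12 to 0.83, so it did not pass, although its unadjusted p of 0.0124 (edgeR) was 1 of 81 under 0.05, 21.8% of the miRNAs tested.

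The miR-27 pair did not pass in cortex. miR-27a-3p, which shares the primary transcript of miR-23a, had lowest, median and highest levels of 1106, 1241 and 1387 CPM in TBI and 897, 1224 and 1648 CPM in sham. The TBI rats all fell inside the sham range. Its log2 fold change was 0.03 (± 0.14 SE, edgeR adjusted p = 0.912), with a 95% interval of -0.27 to 0.33. Its direct comparison with miR-23a-3p, as a ratio inside each library, is given below and did not pass (exact permutation, adjusted p = 0.103).

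miR-27b-3p, the most abundant member, had levels of 6267, 7909 and 9153 CPM in TBI and 6203, 7651 and 8952 CPM in sham (lowest, median and highest). The ranges were almost the same. The log2 fold change was 0.13 (± 0.12 SE, edgeR adjusted p = 0.558), with a 95% interval of -0.14 to 0.39.

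miR-24-3p, the product of both clusters, had levels of 7647, 8456 and 10633 CPM in TBI and 7429, 8254 and 9733 CPM in sham. TBI rats 52 and 63 stood above the highest sham rat and the other 4 TBI rats lay within the sham range. The log2 fold change was 0.11 (± 0.13 SE, edgeR adjusted p = 0.643), with a 95% interval of -0.16 to 0.39.

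**Figure D2:**
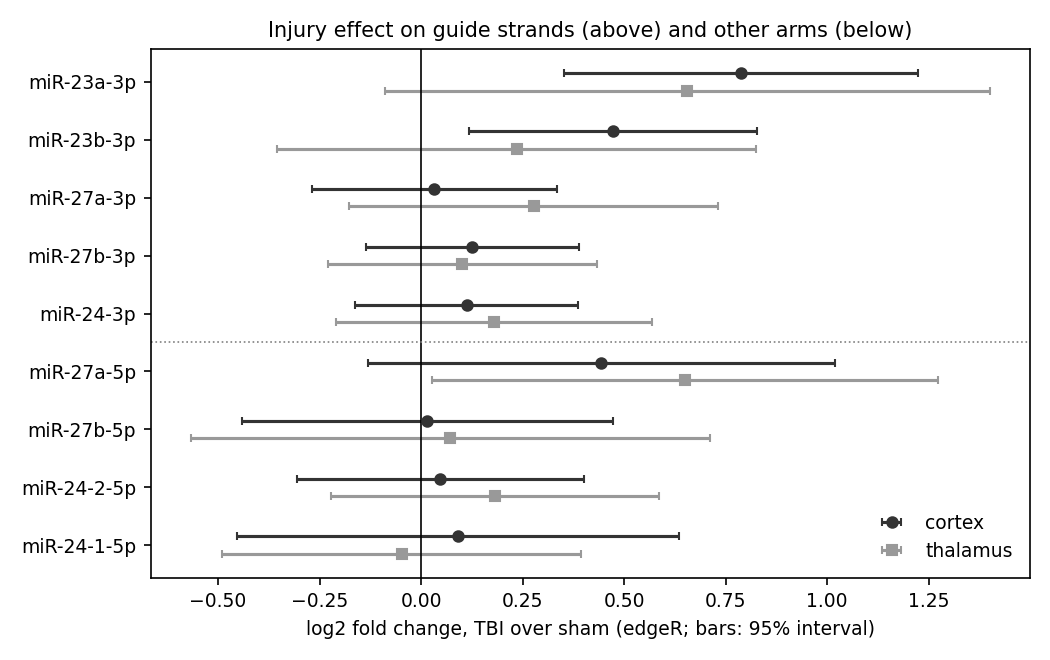
Log2 fold change of TBI over sham from edgeR with its 95% interval, in cortex (dark circles) and thalamus (grey squares), for the 5 guide strands above the dotted line and the other arms below it. The cortical interval of miR-23a-3p runs from 0.35 to 1.23, and those of miR-27a-3p, miR-27b-3p and miR-24-3p include 0.

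The cortical call of miR-23a-3p was near the threshold. Leaving out 1 rat at a time kept its log2 fold change between 0.60 and 0.83, but it passed in 4 of 12 such fits. The adjusted p (edgeR) was 0.0663 without TBI rat 24, 0.0639 without TBI rat 45 and 0.0841 without TBI rat 52. Among the sham rats it was 0.072 without rat 26, 0.0998 without rat 32, 0.0547 without rat 34, 0.0772 without rat 38 and 0.0869 without rat 50. In 1 fit of all 24 libraries the log2 fold change was 0.73 (edgeR adjusted p = 0.271).

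miR-23b-3p passed in some settings, each of which also called miR-23a-3p. It passed with scaling by library size alone (log2 fold change 0.66, edgeR adjusted p = 0.0397), with DESeq2 (0.44, adjusted p = 0.0496) and without sham rat 55 (edgeR adjusted p = 0.0398). Library size scaling also moved the median of all miRNAs from 0.05 to 0.25. The settings thus called miR-23a-3p alone, both or neither, and both estimates stayed above 0 in every cortical setting tried.

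**Figure D3:**
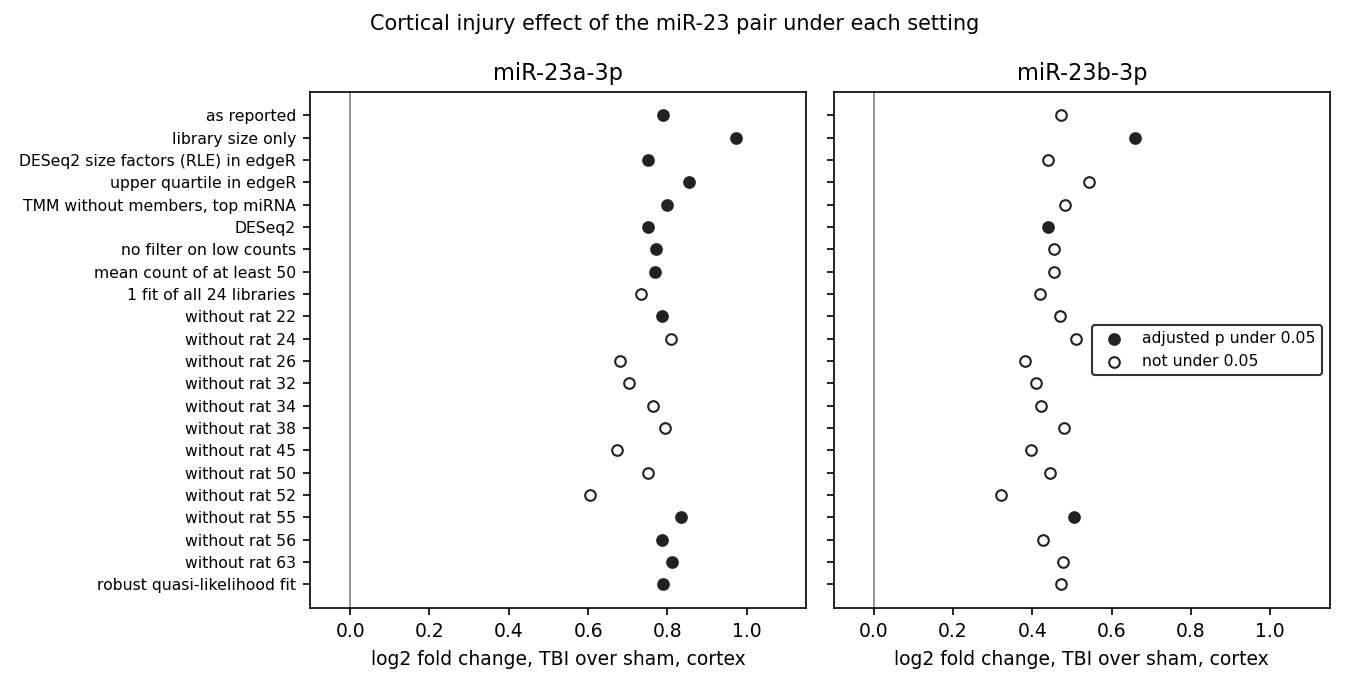
Cortical log2 fold change of TBI over sham for miR-23a-3p and miR-23b-3p under the settings listed, filled where the adjusted p was under 0.05. Every point is to the right of 0, the estimates of miR-23a-3p run from 0.60 to 0.97, and 4 of 12 fits that leave out 1 rat are filled for it.

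Markers of other cell types also differed between these cortical groups. Of the 4 neuronal miRNAs in the marker list, 2 were lower in TBI: miR-128-3p by a log2 fold change of -0.75 (edgeR adjusted p = 0.0232) and miR-132-3p by -0.55 (edgeR adjusted p = 0.0369). The other 2 did not pass, with miR-124-3p at 0.15 (edgeR adjusted p = 0.611) and miR-9a-5p at -0.27 (edgeR adjusted p = 0.260). The summed level of the 4, most of it miR-128-3p (331367 CPM on average in sham and 191513 CPM in TBI), ran from 250817 to 333143 CPM in TBI and from 330181 to 610579 CPM in sham, almost without overlap. The 4 leukocyte and myeloid miRNAs summed to between 861 and 1872 CPM in TBI and between 788 and 1282 CPM in sham. None of these 4 passed, with log2 fold changes of 0.46 to 1.05, and miR-223-3p, the myeloid marker, had 3 to 29 reads per library. The 2 endothelial arms of miR-126a had log2 fold changes of 0.05 and -0.05, and the oligodendrocyte, smooth muscle and pericyte, and red cell lists held 0 calls. Smooth muscle and pericyte miR-145-5p was at 0.64 (edgeR adjusted p = 0.264) and miR-143-3p at -0.05. The oligodendrocyte and red cell miRNAs ran from -0.43 to 0.30. The part of these cell types in the miR-23 difference was not tested.

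In the ipsilateral thalamus none of the 5 guide strands passed, where 0.513% of 390 miRNAs tested did (2 miRNAs). All 5 estimates were again above 0, and the median log2 fold change was 0.24 over the members against -0.03 over all miRNAs tested.

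The thalamic levels of miR-23a-3p were 266, 511 and 876 CPM in TBI and 101, 369 and 483 CPM in sham (lowest, median and highest). The spread was wide: 4 TBI rats exceeded every sham rat, TBI rats 22 and 56 lay among the shams, and the lowest value, from sham rat 55, rested on 45 reads. The log2 fold change of 0.66 (± 0.35 SE, edgeR adjusted p = 0.774) was close in size to that in cortex but had a larger error, with a 95% interval of -0.09 to 1.40.

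miR-23b-3p in thalamus ran from 378 to 1137 CPM in TBI, median 657, and from 271 to 698 CPM in sham, median 614. The groups overlapped, and 3 of 6 TBI rats were above the highest sham. The log2 fold change was 0.24 (± 0.28 SE, edgeR adjusted p = 0.830).

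miR-27a-3p in thalamus had a median of 1188 CPM in TBI (703 to 1496) and 974 CPM in sham (678 to 1258). Here 3 TBI rats stood above the sham range, and the log2 fold change was 0.28 (± 0.21 SE, edgeR adjusted p = 0.807). The 4 leukocyte and myeloid miRNAs summed to 1031 to 1973 CPM in TBI thalamus and 738 to 1177 CPM in sham thalamus. Of these, miR-223-3p had 0 reads in some libraries and was not tested, and the others did not pass. miR-142-5p had a log2 fold change of 1.01 (edgeR adjusted p = 0.217), with 6 TBI rats above every sham, a separation found for 1.03% of the miRNAs tested in thalamus. miR-142-3p was at 0.58 and miR-150-5p at 0.48. The 4 neuronal miRNAs were all lower by the estimate, from -0.12 for miR-9a-5p to -0.37 for miR-132-3p. Smooth muscle and pericyte miR-145-5p was at 0.53 and miR-143-3p at 0.29. The endothelial arms of miR-126a were at 0.21 and 0.01, and the oligodendrocyte and red cell miRNAs ran from -0.42 to 0.29. None of these passed either. The part of these cell types in the member estimates was not tested. The members miR-27b-3p and miR-24-3p differed less than miR-27a-3p by the estimate, with log2 fold changes of 0.10 (SE 0.15, adjusted p = 0.866) and 0.18 (SE 0.18, adjusted p = 0.819, both in edgeR).

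In neither region did the TBI and sham ranges separate for any member. Groups that did not overlap, with TBI higher, were found for 0.809% of the miRNAs tested in cortex and 1.03% in thalamus. The injury effect was not shown to differ between the regions for any member: the interaction over the 24 libraries gave log2 differences (cortex minus thalamus) between -0.28 for miR-27a-3p and 0.18 for miR-23b-3p, and 0 of 407 miRNAs passed with edgeR (16, or 3.93%, had an unadjusted p under 0.05) and 0 with DESeq2. For miR-23a-3p the interaction was 0.07, with a 95% interval of -0.81 to 0.96, so sizeable differences in either direction could not have been seen at this depth and n.

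Counting reads of the a and b forms inside the same library removes the scaling. The ratio of miR-23a-3p to miR-23b-3p was higher in TBI in both regions, whereas that of miR-27a-3p to miR-27b-3p was not shown to differ in either. In all, 5 ratios were compared per region by 2-sided exact permutation tests over all 924 divisions of the 12 libraries, with p-values adjusted over the 5, and the smallest p the design allows was 0.00216.

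In cortex the miR-23a-3p to miR-23b-3p ratio was 0.637 to 0.880 among TBI rats and 0.580 to 0.707 among shams. TBI rat 56, at 0.637, was the only TBI rat within the sham range. The geometric mean was 0.787 in TBI and 0.637 in sham, a log2 difference of 0.31 (SE 0.08, n = 6 and 6, exact permutation p = 0.00866, adjusted p = 0.0433).

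In thalamus the same ratio was 0.688 to 1.07 among TBI rats and 0.374 to 0.693 among shams. Here TBI rat 52, at 0.688, was the only TBI rat not above every sham, the thalamus of sham rat 55 was the lowest library of all, and that of TBI rat 45 the highest. The geometric mean was 0.784 in TBI and 0.561 in sham, a log2 difference of 0.48 (SE 0.17, n = 6 and 6, exact permutation p = 0.00433, adjusted p = 0.0216).

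Put as a share, miR-23a-3p supplied 44.1% ± 2.94 of miR-23 reads in TBI cortex and 38.9% ± 1.71 in sham cortex, and 44.0% ± 4.25 and 36.1% ± 5.03 in thalamus (SD, n = 6). miR-27a-3p supplied 13.6% ± 1.52 of miR-27 reads in TBI cortex and 14.2% ± 1.33 in sham cortex, and 11.6% ± 2.59 and 10.3% ± 1.13 in thalamus. The miR-27 ratio was not shown to differ in either region, and the contrast between the 2 families was not tested itself. The log2 difference of the miR-27a-3p to miR-27b-3p ratio between TBI and sham was -0.07 (SE 0.10, n = 6 and 6, exact permutation p = 0.485) in cortex and 0.16 (SE 0.18, n = 6 and 6, exact permutation p = 0.392) in thalamus.

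Depth moved with the miR-23 ratio. Over the 24 libraries, after the group means were removed, the log2 ratio of miR-23a-3p to miR-23b-3p had a Pearson correlation of 0.60 with log2 depth, against 0.11 for the miR-27 ratio. That of miR-24-2-5p to miR-24-1-5p had one of -0.50. The points share rats and libraries, so this is a description. Depth ran from 757810 to 2592699 reads in TBI cortex and from 744564 to 4069284 in sham cortex. In thalamus it ran from 538194 to 3510576 reads in TBI and from 523298 to 4139901 in sham. The part of depth in these ratios was not tested.

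The cortical ratio was sensitive to single rats. Leaving out 1 at a time kept the log2 difference between 0.27 and 0.37 and its adjusted exact permutation p between 0.0108 and 0.0866. It passed in 3 of 12 such tests, those without sham rat 34, sham rat 55 or TBI rat 56. The thalamic difference ran from 0.36 to 0.54 and passed in 10 of 12, with the exceptions of those without TBI rat 24 or TBI rat 45. Without rats 55 and 56, the shallow thalamus libraries, it was 0.39 (exact permutation, adjusted p = 0.0794) and did not pass.

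**Figure D4:**
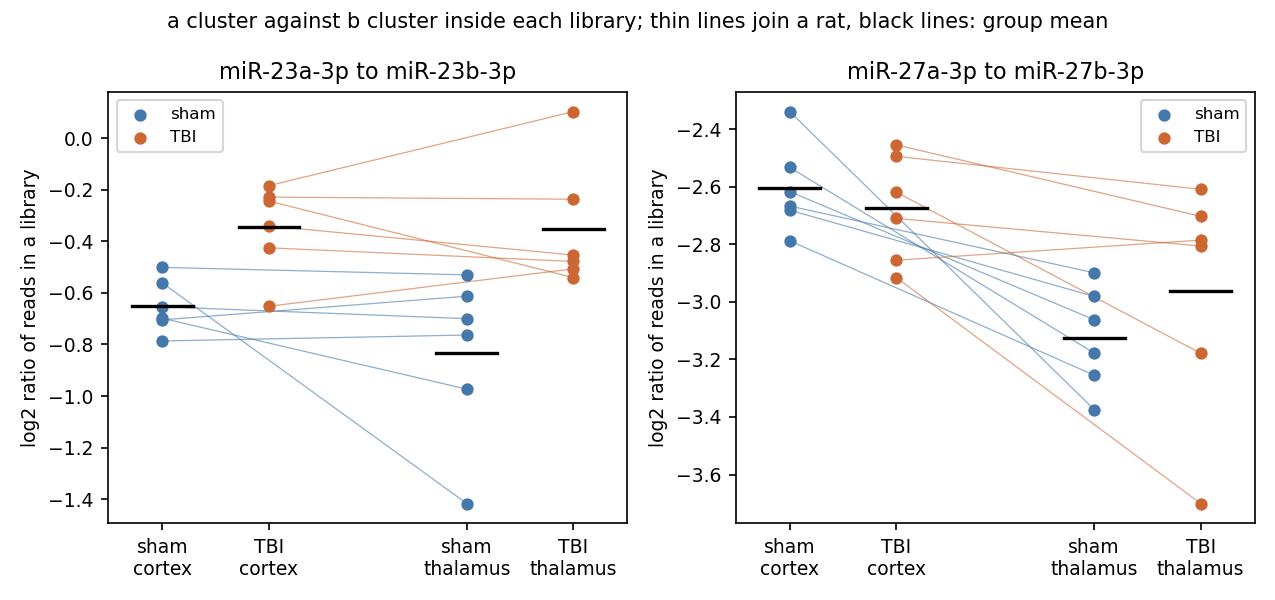
Log2 ratio of the a form to the b form inside each library for miR-23 (left) and miR-27 (right), with thin lines joining the cortex and thalamus of a rat and black lines at the group means. In each region 5 of 6 TBI rats lie above every sham rat for miR-23, and the miR-27 ratio is lower in thalamus than in cortex in all 6 sham rats.

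Inside a cluster the hairpins come from a common transcript, and their guide strands nevertheless shifted against each other in cortex by the estimate. The ratio of miR-27a-3p to miR-23a-3p had a geometric mean of 1.75 in TBI cortex (1.19 to 2.32) and 2.89 in sham cortex (1.43 to 5.47). Sham rat 55, at 1.43, fell within the TBI range and the other 5 shams lay above every TBI rat. The log2 difference was -0.72 (SE 0.30, n = 6 and 6, exact permutation p = 0.0411, adjusted p = 0.103), so it did not pass. Leaving out 1 rat at a time moved it from -0.92 without sham rat 55 to -0.53 without sham rat 32, with adjusted exact permutation p from 0.0108 to 0.216, and it passed in 1 of 12 such tests, the one without sham rat 55.

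The b cluster had the same direction. The ratio of miR-27b-3p to miR-23b-3p had a geometric mean of 8.82 in TBI cortex (7.56 to 10.8) and 11.2 in sham cortex (6.71 to 16.0), and sham rat 55 was again the lowest sham. The log2 difference was -0.34 (SE 0.19, n = 6 and 6, exact permutation p = 0.104, adjusted p = 0.173), and it did not pass. It ran from -0.49 without sham rat 55 to -0.24 without sham rat 32, with adjusted exact permutation p from 0.0144 to 0.328, and again passed in 1 of 12 such tests, the one without sham rat 55. In thalamus the corresponding differences were -0.43 (n = 6 and 6, exact permutation p = 0.338) and -0.11 (n = 6 and 6, exact permutation p = 0.690), and neither passed.

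The other arms of the hairpins, mostly degraded after the guide is loaded, were followed as well, at much lower counts. Of the 4 that were tested in each region, 0 passed. miR-27a-5p, with 4 to 47 reads per cortical library and 6 to 66 per thalamic library, had log2 fold changes of 0.44 (± 0.27 SE, edgeR adjusted p = 0.310) in cortex and 0.65 (± 0.29 SE, edgeR adjusted p = 0.774) in thalamus. Its thalamic unadjusted p of 0.0422 (edgeR) was 1 of 22 under 0.05, 5.64% of the miRNAs tested. miR-27b-5p had log2 fold changes of 0.02 (SE 0.21) and 0.07 (SE 0.30).

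The arms that tell the miR-24 hairpins apart did not pass either. In cortex miR-24-2-5p of the a cluster ran from 213 to 348 CPM in TBI and from 203 to 382 CPM in sham, which gave a log2 fold change of 0.05 (± 0.17 SE, edgeR adjusted p = 0.909). miR-24-1-5p of the b cluster ran from 31.4 to 72.0 CPM in TBI and from 29.6 to 81.2 CPM in sham, with a log2 fold change of 0.09 (± 0.26 SE, edgeR adjusted p = 0.901). The ranges coincided for both, and their ratio differed by -0.09 on the log2 scale in cortex (SE 0.16, n = 6 and 6, exact permutation p = 0.574) and by 0.25 in thalamus (SE 0.19, n = 6 and 6, exact permutation p = 0.221).

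The regions were compared in the joint fit of 24 libraries. miR-24-3p was the only member that differed between cortex and thalamus, and it was higher in cortex in both sham and TBI rats. Of 407 miRNAs tested, 25.1% passed in sham rats and 27.3% in TBI rats. The column names number the libraries once over both regions, with cortex and thalamus interleaved, and the sequencing runs themselves are not given in the sources used here. The 3 oligodendrocyte miRNAs were lower in cortex, summing to 3584 to 4320 CPM in sham cortex and 10135 to 17583 CPM in sham thalamus, while the 4 neuronal ones summed to 330181 to 610579 CPM and 168585 to 325301 CPM. The 2 smooth muscle and pericyte miRNAs summed to 26564 to 45059 CPM in sham cortex and 18033 to 29354 CPM in sham thalamus. Of these, miR-143-3p passed in sham (log2 difference 0.75, edgeR adjusted p = 0.0030) but not in TBI (0.36, edgeR adjusted p = 0.164), and miR-145-5p passed in neither. The endothelial, leukocyte and myeloid, and red cell lists did not pass, with the arms of miR-126a at 0.04 and 0.19 in sham. The part of this cell makeup in the region differences was not tested.

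In sham rats miR-24-3p ran from 7429 to 9733 CPM in cortex, median 8254, and from 4559 to 8022 CPM in thalamus, median 4993. Each of the 6 sham rats had more in its cortex than in its thalamus, with sham rat 32 the highest in thalamus. The log2 difference was 0.59 (± 0.16 SE, edgeR adjusted p = 0.00569). Without sham rat 50 it was 0.50 (edgeR adjusted p = 0.068).

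In TBI rats miR-24-3p ran from 7647 to 10633 CPM in cortex and from 5055 to 8580 CPM in thalamus, median 6030. Cortex was again higher in 6 of 6 rats, and the log2 difference was 0.47 (± 0.16 SE, edgeR adjusted p = 0.0255). The call was lost without any of TBI rats 22, 24, 45, 52 or 63 or sham rat 50, with log2 differences of 0.34 to 0.43 in those fits. With scaling by library size alone the difference was 0.15 in sham (edgeR adjusted p = 0.473) and 0.30 in TBI (edgeR adjusted p = 0.194), and the same setting moved the median of all miRNAs in sham from -0.04 to -0.46.

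The 5′ arms allowed the miR-24 hairpins to be read apart. miR-24-2-5p ran from 203 to 382 CPM in sham cortex and from 159 to 254 CPM in sham thalamus, a log2 difference of 0.50 (± 0.17 SE, edgeR adjusted p = 0.0324), with sham rat 55 the only sham rat higher in thalamus. miR-24-1-5p differed by 0.08 (± 0.23 SE, edgeR adjusted p = 0.831). Inside the libraries, the ratio of miR-24-2-5p to miR-24-1-5p was higher in cortex in 6 of 6 sham rats, by 0.47 on the log2 scale (SE 0.09, exact sign-flip permutation p = 0.0312, the smallest 6 rats allow, adjusted p = 0.0781). In TBI rats that difference was 0.12 (SE 0.19, n = 6, exact sign-flip permutation p = 0.562). The change between sham and TBI was -0.34 (SE 0.21, n = 6 and 6, exact permutation p = 0.0996, adjusted p = 0.498) and did not pass. This ratio had a within-group Pearson correlation of -0.50 with log2 depth, and the part of depth in it was not tested. The miR-24-2-5p call was lost in 8 of 12 fits that left out 1 rat, with adjusted p up to 0.145 in edgeR, and was lost with library size scaling (log2 difference 0.06, edgeR adjusted p = 0.804) and with no filter on low counts (0.50, edgeR adjusted p = 0.0518).

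**Figure D5:**
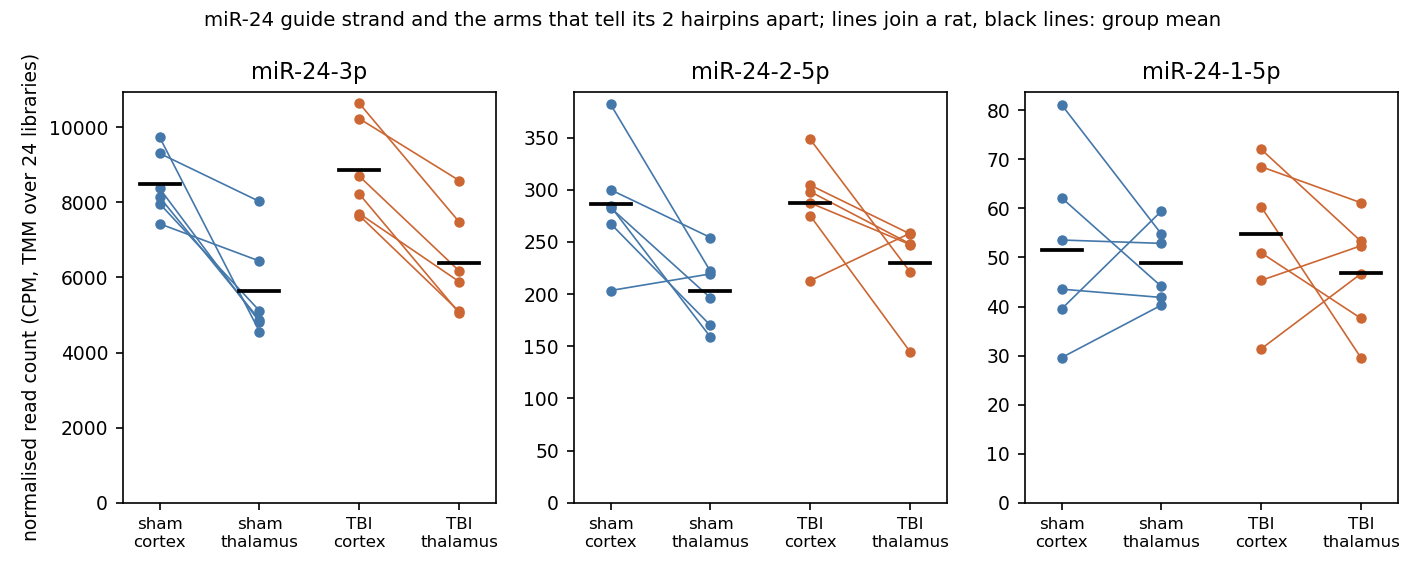
Normalised read count (CPM, linear axes starting at 0) of miR-24-3p and of the 5′ arms from its a cluster hairpin (miR-24-2-5p) and b cluster hairpin (miR-24-1-5p), with lines joining the cortex and thalamus of a rat and black lines at the group means. miR-24-3p falls from cortex to thalamus in 6 of 6 sham and 6 of 6 TBI rats, and miR-24-2-5p in 5 of 6 of each.

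The other members did not pass between regions. In sham rats the log2 difference (cortex over thalamus) was 0.34 for miR-23a-3p, 0.24 for miR-23b-3p, 0.37 for miR-27a-3p and -0.15 for miR-27b-3p, with adjusted p from 0.142 to 0.499 in edgeR. In TBI rats it was 0.41, 0.41, 0.09 and -0.16, with adjusted p from 0.222 to 0.735 in edgeR. With library size scaling the sham estimates of miR-23a-3p, miR-23b-3p and miR-27a-3p turned negative, at -0.12, -0.21 and -0.10, and miR-27b-3p passed as lower in cortex (-0.59, edgeR adjusted p = 0.00926).

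The miR-27 ratio needed no scaling. miR-27a-3p to miR-27b-3p was higher in cortex than in thalamus in 6 of 6 sham rats, by 0.52 on the log2 scale (SE 0.12, exact sign-flip permutation p = 0.0312, adjusted p = 0.0781), and in 5 of 6 TBI rats, by 0.29 (SE 0.13, exact sign-flip permutation p = 0.0625). miR-27b-3p to miR-23b-3p was lower in cortex in 6 of 6 TBI rats, by -0.66 (SE 0.14, exact sign-flip permutation p = 0.0312, adjusted p = 0.156). With 6 rats the smallest p is 0.0312, and after adjustment over 5 ratios none can pass unless 4 reach it together.

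Within groups the levels of the miR-23 pair ran together more closely than those of either miR-23 with the miR-27 of its own cluster. After group means were removed, the log2 levels of miR-23a-3p and miR-23b-3p had a Pearson r of 0.95 and a Spearman rho of 0.95 over the 24 libraries, and an r of 0.92 once the 2 most extreme libraries for miR-23a-3p were dropped. miR-23a-3p and miR-27a-3p, from the same transcript, had an r of 0.15 (rho 0.09), and -0.19 without the 2 farthest. The b cluster partners, miR-23b-3p and miR-27b-3p, had an r of 0.53 (rho 0.48), and 0.47 without the 2 farthest. The miR-27 pair had an r of 0.58 (rho 0.63). The a and b forms of a family share their first 18 bases, and how shorter reads were assigned is not given. The part of such reads in these correlations was not tested. All of these values describe libraries that share rats and depth. Log2 depth itself had an r of 0.52 with miR-23a-3p, 0.41 with miR-23b-3p, 0.76 with miR-27a-3p, 0.89 with miR-27b-3p and 0.13 with miR-24-3p.

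Among 398 other miRNAs, the ones whose within-group pattern was most like that of a member were picked by Pearson r over the 24 libraries. For miR-23a-3p they were miR-107-3p (r = 0.96) and miR-361-5p (r = 0.94), and for miR-23b-3p miR-93-5p (r = 0.95) and miR-107-3p (r = 0.94). Of these, miR-93-5p passed as higher in TBI cortex (log2 fold change 0.66, edgeR adjusted p = 0.0369). For miR-27a-3p the nearest were miR-140-5p (r = 0.79) and miR-143-5p (r = 0.78), for miR-27b-3p miR-379-3p and miR-126a-5p (r = 0.81 for both), and for miR-24-3p the endothelial miR-126a-3p (r = 0.89) and miR-872-5p (r = 0.84). None of these last 6 passed between TBI and sham in either region.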

How the data were processed

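Small RNA from 24 libraries was analysed as whole read counts per miRNA, deposited by the authors for cortex and thalamus. The authors trimmed adapters, mapped reads to the rat assembly RGSC3.4 and annotated them with miRBase. The cortex table also listed 444 tRNA features, 11.9% of its reads, which were left out. The authors' CPM tables were not used. Groups and rat numbers came from the sample titles. The members and lists were chosen with earlier results of these data known. Text names are the members, the other arms of their hairpins, the marker lists and the 2 miRNAs most like each member.

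Counts were tested with edgeR 4.0.16 in R 4.3.3 (filterByExpr, TMM, glmQLFit and glmQLFTest, Benjamini-Hochberg over all miRNAs tested, threshold 0.05), per region for TBI against sham and in 1 fit of 24 libraries for region and interaction. The standard error was the absolute log2 fold change over the square root of F. CPM values printed were scaled over all 24 libraries, and fold changes come from the fits. Ratios used reads plus 0.5. DESeq2 1.42.0 and other scalings, filters and fits leaving out rats were alternatives. A count of 0 allows up to 4.67 CPM in the shallowest cortex library and 6.71 CPM in thalamus (3 reads). Intervals are for the difference between groups and take the spread between these rats into account, while floors cover counting error only.

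Cortex and thalamus libraries of a number come from the same rat per the labels and methods. Deviations from group means correlated between them with a median of 0.38 (-0.18 to 0.64, above 0.1 in 8 of 12 rats). The correlation was 0.30 to 0.64 in the TBI rats but -0.18 to 0.49 in the shams, with sham rats 26, 32, 50 and 55 below 0. The pairing of the sham rats thus rests mainly on the labels. The tests were first tested on simulated data with known changes.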

Additional observations from a re-analysis of the deposited data

Results flagged for a closer look

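In each group of 6, the lowest and highest value were set against the rest by Dixon's ratio (gap to the nearest value over the range, limit 0.625). This was done for 56 sets of values, of which 4 stood out, where about 2.8 would by chance. miR-23b-3p was lowest in the thalamus of sham rat 55, at 270.8 CPM with the next rat at 547 CPM. The ratio of miR-27b-3p to miR-23b-3p was highest in the same library, at 4.58 on the log2 scale, with the next at 3.87. miR-27b-3p was lowest in the thalamus of TBI rat 56, at 6042 CPM, with the next at 9143 CPM. These were the shallowest thalamus libraries, at 523298 and 538194 miRNA reads. miR-24-2-5p was lowest in the thalamus of TBI rat 52, at 144.7 CPM, with the next at 221 CPM. The cause of these values was not tested.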

How the results depend on the processing

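The number of cortical miRNAs past the threshold, 21 with 1 member, was 39 (2 members) with library size scaling, 40 (2) with DESeq2, 5 (0) in 1 fit of 24 libraries and 32 (2) without rats 55 and 56, a setting chosen after seeing the data, as was a robust fit (22). It ran from 4 to 30 (members 0 to 2) when 1 rat was left out. The lowest counts were 4 without sham rat 38, 5 without sham rat 50, 6 without TBI rat 24 or 45, 7 without sham rat 26 8 without sham rat 32 and 12 without TBI rat 52. The thalamic count of 2 was 1 with a mean count of at least 50, 5 in 1 fit of 24 libraries and 0 to 2 without 1 rat. Between regions, the sham count of 102 became 168 with library size scaling (13.1% of calls higher in cortex, against 49.0%), the TBI member count became 0, and both member counts ran from 0 to 1 without 1 rat. The share of cortical calls higher in TBI, 52.4%, was 92.3% with library size scaling and 80.0% with upper quartile scaling.

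With the rat as a replicate block the log2 difference of miR-24-3p between regions was 0.62 in sham (adjusted p = 0.00162) and 0.49 in TBI (adjusted p = 0.00871, both in edgeR), and the block changed no call of a member or of miR-24-2-5p or miR-24-1-5p. Without the replicate block, the sham region difference of miR-27a-3p to miR-27b-3p (0.52, exact permutation, adjusted p = 0.0108) and of miR-24-2-5p to miR-24-1-5p (0.47, exact permutation, adjusted p = 0.0379) passed.

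Without rats 55 and 56 the cortical log2 differences of miR-27a-3p to miR-23a-3p and of miR-27b-3p to miR-23b-3p were -1.0 and -0.47 and passed, and miR-23a-3p to miR-23b-3p in thalamus was 0.39 and did not. Without 1 rat the first 2 ran from -0.92 to -0.53 and from -0.49 to -0.24, and miR-23a-3p to miR-23b-3p from 0.27 to 0.37 in cortex and from 0.36 to 0.54 in thalamus.

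Reversals were all of estimates that had not passed. miR-27b-5p in cortex was -0.021 with DESeq2 size factors, -0.024 with DESeq2, -0.011 with no filter, -0.036 in 1 fit of 24 libraries, -0.062 without rats 55 and 56 and -0.15 to 0.12 without 1 rat. miR-27a-3p in cortex was -0.010 in 1 fit, -0.077 without both rats and -0.11 to 0.14 without 1. Without both rats miR-24-1-5p was -0.094 in cortex and 0.0085 in thalamus (-0.066 to 0.29 and -0.067 to 0.11 without 1), miR-24-2-5p in cortex -0.11 (-0.090 to 0.16) and miR-23b-3p between sham regions -0.035 (-0.026 to 0.35). With library size scaling the region differences were -0.12, -0.21, -0.10 and -0.40 for miR-23a-3p, miR-23b-3p, miR-27a-3p and miR-24-1-5p in sham and -0.079 for miR-27a-3p in TBI, and the interactions 0.016, 0.24 and 0.14 for miR-27a-3p, miR-27b-3p and miR-24-3p. Without 1 rat, miR-24-1-5p in sham ran from -0.067 to 0.22, miR-27a-3p in TBI from -0.10 to 0.10, miR-27b-5p in thalamus from -0.0028 to 0.34, and the interactions of miR-23a-3p from -0.093 to 0.42 and of miR-27b-3p from -0.14 to 0.012. The cause was not tested. Of 1366 alternative values, 1215 were labelled the same. For single miRNAs this meant the same direction and side of the threshold, and for counts of calls a small change. Ratios needed only the same side of the threshold, or for most within-rat region differences a move smaller than the SD between rats. Sign changes of ratios that did not pass were thus not counted as reversals. One was miR-27b-3p to miR-23b-3p in thalamus, from -0.25 to 0.044 without 1 rat. Depth limits miR-23a-5p and miR-23b-5p, which had too few reads to test.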
